A study of Mus musculus with 9 samples.

Results

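Afp, H19, Igf2, Gpc3, Cd24a, Ly6d and Tff3 are genes of the fetal liver, of liver progenitors or of liver tumours, and their RNA was followed in mouse livers injured with thioacetamide (TAA). They were chosen by symbol, as 7 of the 24532 genes in the deposited table, and all 7 passed the filter on low counts. RNA was sequenced as 9 liver libraries of wild-type C57BL/6 mice. All mice had received TAA, a hepatotoxin that causes fibrosis, by intraperitoneal injection 2 times a week in escalating doses over 10 weeks. Recombinant human cytoglobin (rhCYGB), a heme protein that in liver is native to stellate cells, was injected into the tail vein at 2 mg/kg, also 2 times a week. One group received it over the last 2 weeks of TAA (rhCYGB 2 weeks, replicates 17, 18 and 19). Another received it over the last 5 weeks (rhCYGB 5 weeks, replicates 23, 27 and 28). The TAA group received saline (replicates 12, 13 and 14). Livers without TAA were not analysed here, so the values show differences among injured livers and not how far any gene stood from healthy liver. Whether every replicate number stands for its own mouse is not stated, so the p-values refer to the variation among these 9 samples, which may be partly technical. The age and sex of the mice are not used here.

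Oncofetal genes are active in the fetal liver, are shut down after birth, and are switched on again in some regenerating livers and liver tumours. Afp encodes alpha-fetoprotein, the main fetal serum protein, and sits beside albumin in a gene cluster. H19 and Igf2 are neighbouring imprinted genes: H19 is a non-coding RNA made from the maternal copy, Igf2 is a growth factor made from the paternal copy, and they compete for shared enhancers. In mice, Zhx2 and Zbtb20 are known repressors of Afp after birth, and Zhx2 also of H19 and Gpc3. Gpc3 encodes glypican-3, a heparan sulfate proteoglycan on the cell surface and a tumour marker in human hepatocellular carcinoma. Cd24a and Ly6d encode small lipid-anchored surface proteins, and Tff3 a secreted trefoil peptide of mucus-producing epithelia.

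Promoters are shown for Afp, Igf2 and Gpc3, the members with an entry in the RefSeq promoter table. Sequences are from RefSeq on GRCm38.p6, read 5′ to 3′ on the strand of the gene, from 250 bases before to 50 bases after the annotated start. The RefSeq promoter table held 3 of the 7 members. Capitals mark matches on either strand to GTTAAT (a short site of HNF1, a hepatocyte transcription factor), the full HNF1 site (searched as GTTACTAGTTAAC with bases 5, 7 and 8 free), TATAAA (the TATA box) or GGGCGG (GC box, which reads CCGCCC on the other strand). No marked match overlapped another. The Afp window is chr5:90490464-90490763 on the plus strand, the Igf2 window chr7:142658755-142659054 on the minus strand and the Gpc3 window chrX:52613925-52614224 on the minus strand.
Afp: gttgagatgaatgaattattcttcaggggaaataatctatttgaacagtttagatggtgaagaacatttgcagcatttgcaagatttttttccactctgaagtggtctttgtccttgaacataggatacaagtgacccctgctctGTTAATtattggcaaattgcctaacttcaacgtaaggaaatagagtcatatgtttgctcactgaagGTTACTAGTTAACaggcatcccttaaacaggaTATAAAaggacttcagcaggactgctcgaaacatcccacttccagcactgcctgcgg
Igf2: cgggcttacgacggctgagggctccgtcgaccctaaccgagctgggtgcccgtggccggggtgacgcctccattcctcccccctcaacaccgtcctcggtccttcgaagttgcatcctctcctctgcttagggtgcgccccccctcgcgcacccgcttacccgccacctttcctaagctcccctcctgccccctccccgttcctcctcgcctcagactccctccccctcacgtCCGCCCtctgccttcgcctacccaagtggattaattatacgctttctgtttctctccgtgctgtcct
Gpc3: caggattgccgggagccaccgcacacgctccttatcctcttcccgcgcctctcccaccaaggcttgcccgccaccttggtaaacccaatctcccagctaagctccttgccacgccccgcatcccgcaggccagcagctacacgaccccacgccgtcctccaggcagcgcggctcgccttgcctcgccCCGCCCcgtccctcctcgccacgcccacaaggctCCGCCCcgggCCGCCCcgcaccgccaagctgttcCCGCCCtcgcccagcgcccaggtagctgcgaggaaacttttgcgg

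Afp had 1 short HNF1 site at bases -105 to -100, 1 full HNF1 site at -39 to -27 and 1 TATA box at -7 to -2, counted from the RefSeq start. GENCODE M21 places the Afp start further downstream, at chr5 position 90490737, where RefSeq and the deposited table have 90490714. The full HNF1 site was present in 31 of 32851 RefSeq promoters (0.0944%), the short site in 7.1% and the TATA box in 13.6%. The full site is written above with the letters of the Afp match, so its rarity among promoters is no test. Gpc3 had 4 GC boxes and Igf2 had 1, a motif present in 35.7% of promoters, and Afp had none in this window. The GC content was 40.0% for Afp, 64.7% for Igf2 and 70.7% for Gpc3, against a median of 52.7% over all promoters. These matches describe the letters only, and no binding was measured.

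H19 also carries a microRNA, miR-675, within its sequence. The mature forms are shown because H19 was the member with the largest difference. They lie within H19 at chr7:142577112-142577133 and chr7:142577078-142577099, both on the minus strand, with the seed (bases 2 to 8) in capitals.
mmu-miR-675-5p: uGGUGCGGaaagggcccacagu
mmu-miR-675-3p: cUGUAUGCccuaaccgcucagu
The seeds of the pair differ. Mature microRNAs were not measured in these mRNA libraries, so all values are for the H19 host RNA.

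In the deposited table, which uses mm10, Afp lies at chr5:90490714-90508907 on the plus strand and Cd24a at chr10:43579169-43584265 on the plus strand. On the minus strand lie H19 (chr7:142575530-142578146), Igf2 (chr7:142650768-142658804 for its first transcript variant), Gpc3 (chrX:52272427-52613974), Ly6d (chr15:74762056-74763567) and Tff3 (chr17:31125306-31129611). GENCODE M21 lists H19 as a long intergenic non-coding RNA and the others as protein-coding.

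Library totals lay between 55655727 and 87289945 estimated reads, a 1.57-fold range, and 14731 genes were tested. Levels are given as CPM, estimated reads scaled to library size with edgeR's TMM factors. A gene was called at an adjusted p under 0.05 in edgeR's quasi-likelihood test. With library totals in place of TMM, the median log2 change over all tested genes against TAA was -0.36 at 2 weeks and -0.21 at 5 weeks. With TMM it was -0.03 and 0.01. Replicate 23 of the 5-week group stood apart, and not for these genes alone. Its value was below the TAA mean for all 7. It was also the lowest of the 9 libraries in summed cholangiocyte (231 CPM), endothelial (165 CPM) and stellate cell markers (428 CPM). The same held for summed macrophage (429 CPM), mesothelial (6.30 CPM) and gallbladder and mucosal epithelium markers (3.01 CPM). In summed dividing cell markers, T and NK cell markers and mature hepatocyte genes replicate 23 was not the lowest. Neither was it in B cell, neutrophil, erythroid or intestine and pancreas markers. In bulk liver, fewer cells of a type and less RNA per cell cannot be told apart.

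Per transcript length, the members spanned a wide range in the livers. In FPKM, the authors' values scaled to transcript length and library size, Ly6d was highest in every group, at 103 ± 13.5 with rhCYGB for 2 weeks, 81.0 ± 34.4 with rhCYGB for 5 weeks and 118 ± 17.7 with TAA alone (SD, n = 3 each). Afp averaged 16.1 ± 0.909 FPKM at 2 weeks, 22.2 ± 12.4 FPKM at 5 weeks and 33.9 ± 1.12 FPKM in TAA livers. Igf2 was lowest in every group, at 0.138 ± 0.0557 FPKM at 2 weeks, 0.1004 ± 0.0604 FPKM at 5 weeks and 0.194 ± 0.036 FPKM in TAA livers. In TAA livers the order was Ly6d, Afp, Cd24a, Gpc3, H19 and Tff3, and then Igf2, and only H19 and Tff3, with 1.34 to 2.86 and 1.62 to 1.74 FPKM, had overlapping ranges. At 2 weeks H19 (0.252 to 0.699 FPKM) lay below Tff3 (0.737 to 2.35 FPKM), and Cd24a (6.22 to 11.4 FPKM) overlapped Gpc3 (4.65 to 13.25 FPKM). At 5 weeks Gpc3 (2.42 to 13.9 FPKM), Cd24a (2.35 to 11.8 FPKM) and Afp (8.84 to 33.3 FPKM) overlapped, and so did H19 (0.255 to 0.926 FPKM) and Tff3 (0.778 to 2.28 FPKM).

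**Figure D1:**
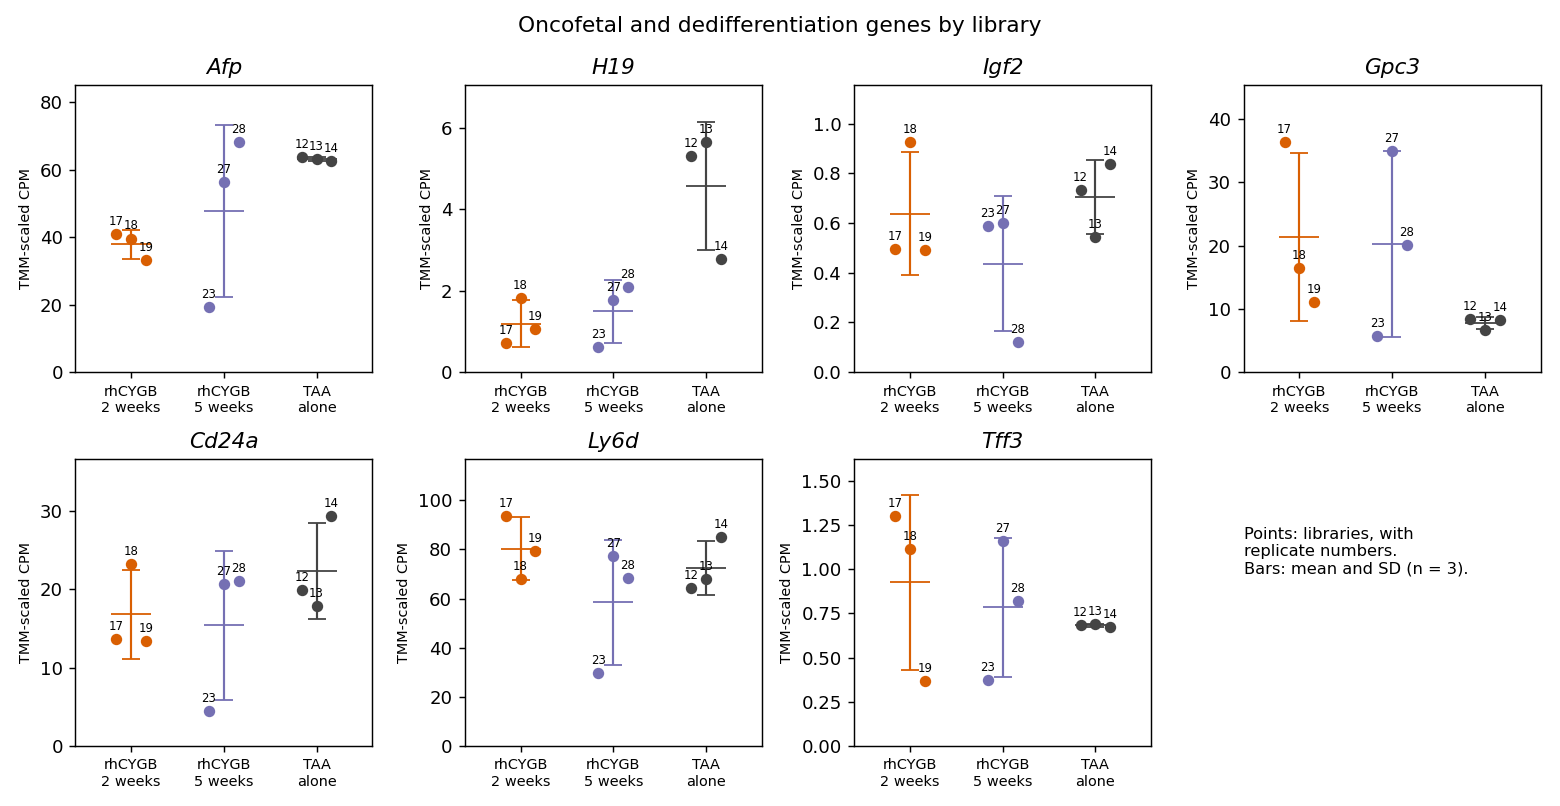
Levels of the 7 genes in CPM in each of the 9 libraries, by group, on a linear axis per gene. Points are libraries and bars the group mean and SD. H19 lies at 0.617 to 2.09 CPM in the 6 rhCYGB libraries and at 2.775 to 5.64 CPM in the 3 TAA libraries, without overlap, whereas the other genes overlap in at least 1 of the 2 rhCYGB groups.

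At 2 weeks, none of the 7 genes was called against TAA by edgeR, where 3.31% of all tested genes were called (1.98% higher and 1.34% lower). DESeq2 called 1 of the 7 (H19), where it called 8.25% of all genes, and 2 of the 7 (H19 and Gpc3) had an unadjusted p under 0.05, against 23.4% of all genes. Afp and H19 lay below every TAA library (2 of 7, against 16.3% of all genes) and Gpc3 above every one (1 of 7, against 17.3%). The median log2 change of the 7 genes was -0.13, against -0.03 over all genes, and it ran from -0.51 to 0.02 with a library left out (-0.509 without replicate 18, -0.31 without 13, 0.009 without 14, 0.018 without 17 and 0.024 without 19). At 5 weeks none was called by edgeR (background 1.29%, with 0.686% higher and 0.604% lower), DESeq2 called H19 alone (background 5.73%), and H19 and Gpc3 had an unadjusted p under 0.05 (background 19.2%). H19 alone lay below every TAA library at 5 weeks (1 of 7, against 13.4%). The median at 5 weeks was -0.40, against 0.01 over all genes, and it rested on replicate 23, without which it was -0.037. With the 6 rhCYGB libraries as 1 group, 1 of the 7, H19, was called lower, where 1.13% of all genes were called lower, 0.869% higher and 2.00% in either direction. H19 and Gpc3 had an unadjusted p under 0.05 there (background 17.8%), DESeq2 called both (background 5.73%), and the median of the 7 was -0.39, against 0.01 over all genes and between -0.56 and -0.19 with a library left out. H19 was also the only member whose groups did not overlap in that comparison, against 6.73% of all genes that lay lower. The comparisons with TAA share the 3 TAA libraries, so they are not independent of each other. The backgrounds given here for DESeq2 and for an unadjusted p under 0.05 apply also to the gene lists below.

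**Figure D2:**
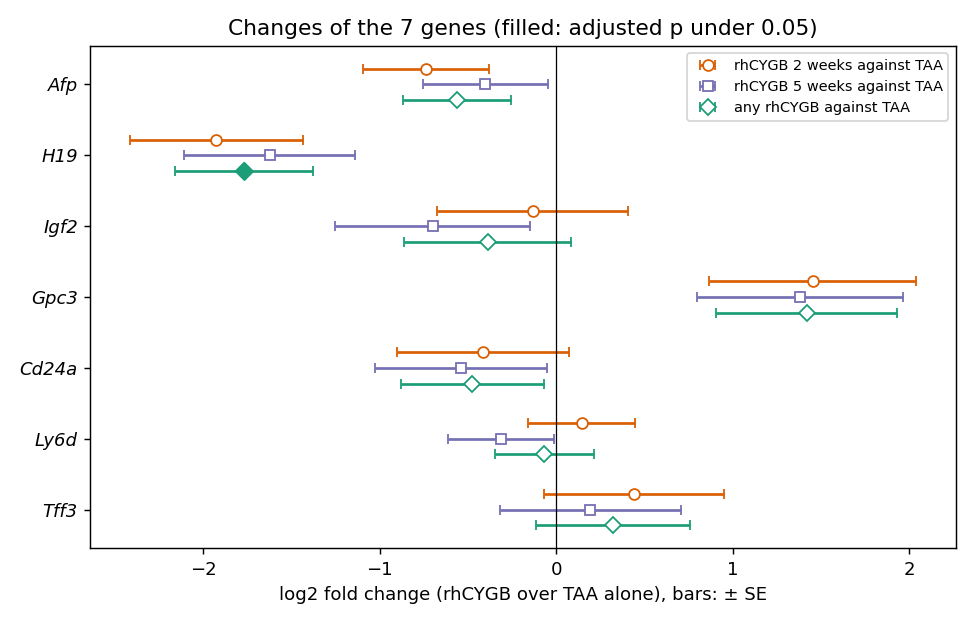
Log2 change of each gene with its standard error in the 3 comparisons with TAA (rhCYGB 2 weeks, rhCYGB 5 weeks and all rhCYGB libraries), filled where called. H19 lies furthest below 0 and Gpc3 furthest above it in each comparison with TAA, and only the H19 value over all rhCYGB libraries was called.

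Afp, the fetal serum protein, was lower in the 2-week livers than in TAA livers in every library and spread widely at 5 weeks, but it was called in neither. It had 40.9, 39.6 and 33.1 CPM in the 2-week libraries, 19.2, 56.2 and 68.1 CPM in the 5-week libraries, and 63.8, 63.1 and 62.5 CPM in the TAA libraries. The TAA libraries lay within a coefficient of variation of 1.02% and the 2-week libraries within 11%, whereas the 5-week libraries varied by 53.4%. The log2 change was -0.74 ± 0.36 at 2 weeks (SE, adjusted p = 0.243) and -0.40 ± 0.36 at 5 weeks (adjusted p = 0.585). Without replicate 23, the 2-week change was -0.75 ± 0.12 and was called (adjusted p = 0.0161), and it was also called in a fit of the 2 groups alone (-0.75 ± 0.12, adjusted p = 0.0188). The 5-week change was -0.037 ± 0.137 without replicate 23 (adjusted p = 0.937). The neighbours of Afp in the albumin cluster were not called. Gc, the vitamin D-binding protein, averaged 10890 ± 1420 CPM at 2 weeks and 7631 ± 558 CPM in TAA livers, with every 2-week library above TAA (log2 change 0.51 ± 0.15, adjusted p = 0.0879). Alb, the main adult serum protein, averaged 107600 ± 19300 CPM at 2 weeks against 86170 ± 5410 CPM in TAA livers (adjusted p = 0.318). EdgeR called none of the 3 relatives tested (Alb, Afm and Gc) in any comparison, DESeq2 called 1 at 2 weeks, and 1 had an unadjusted p under 0.05 there.

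The known repressors of Afp showed no called difference. Zhx2, a zinc-finger homeobox repressor, had 11.8, 11 and 12.7 CPM at 2 weeks, 13.2, 11.4 and 12.9 CPM at 5 weeks, and 13.1, 11.6 and 8.23 CPM in TAA livers, and the groups overlapped. Its log2 change was 0.11 ± 0.17 at 2 weeks (adjusted p = 0.725). Zbtb20, a zinc-finger repressor, had a log2 change of 0.19 ± 0.27 at 2 weeks (adjusted p = 0.694). Of 19 regulators of Afp, H19 and Gpc3, edgeR called none at either time. DESeq2 called 2 at 2 weeks and 0 at 5 weeks, 6 and 3 had an unadjusted p under 0.05, and the medians were -0.15 at 2 weeks and 0.02 at 5 weeks. The regulator with the lowest p, Tead1, a transcription factor of the Hippo pathway, averaged 9.48 ± 1.46 CPM at 2 weeks and 15.4 ± 2.08 CPM in TAA livers (log2 change -0.70 ± 0.18, adjusted p = 0.0607).

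H19 was lower in all 6 rhCYGB libraries than in any TAA library. It had 0.703, 1.81 and 1.06 CPM in the 2-week libraries, 0.617, 1.76 and 2.09 CPM in the 5-week libraries, and 5.31, 5.64 and 2.775 CPM in the TAA libraries. Replicate 14 was the lowest of the TAA libraries, and replicates 17 and 23 the lowest with rhCYGB. These are 34, 143 and 58 estimated reads at 2 weeks, 40, 91 and 137 at 5 weeks, and 327, 384 and 202 in TAA livers. The level was 3.79-fold lower at 2 weeks (log2 change -1.92 ± 0.49, adjusted p = 0.0606) and 3.08-fold lower at 5 weeks (-1.62 ± 0.49, adjusted p = 0.121). Over all 6 rhCYGB libraries it was 3.40-fold lower, -1.77 ± 0.39, and called at an adjusted p of 0.0496 in edgeR's test. This call stood at the threshold: leaving out a library gave adjusted p values between 0.0318 and 0.198. It was lost without replicate 12 (0.149), 13 (0.198), 14 (0.132), 17 (0.079), 18 (0.0573), 19 (0.101) or 27 (0.0789), and kept without 23 (0.0318) or 28 (0.0495). The value stayed between -2.03 and -1.06 under every alternative run, and between -2.03 and -1.61 with a library left out. The first range includes fits on log2(FPKM + 1), where the added 1 shrinks the change of a gene with so few FPKM. Nearly all reads went to the 1 transcript NR_130973 (1397 reads over the 9 libraries), and 19 reads of NR_130974 came from replicate 19.

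**Figure D3:**
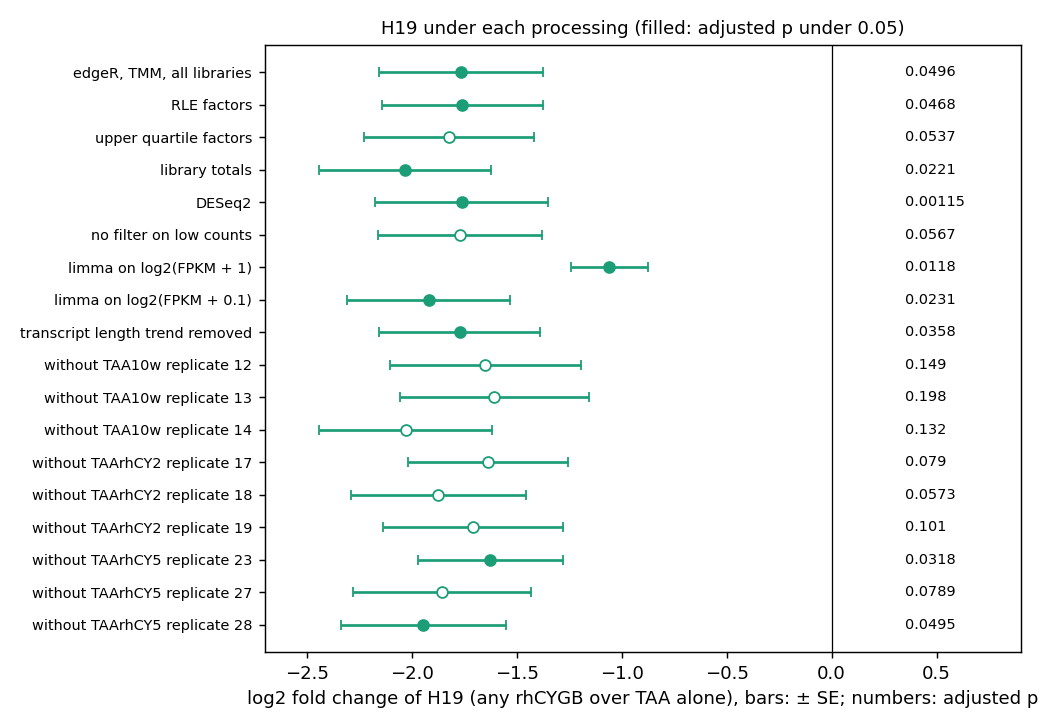
Log2 change of H19 over all rhCYGB libraries against TAA with each processing alternative and with each library left out, with its SE and adjusted p, filled where called. All points lie between -2.03 and -1.06, and the adjusted p lies above or below 0.05 depending on the alternative. Points from log2(FPKM + 1) are on a scale that shrinks the change of a gene at this level.

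Other genes known to be imprinted did not pass the test. Of 20 imprinted growth genes in the list, 18 were tested and edgeR called none in any comparison. DESeq2 called 1 at 2 weeks and 2 at 5 weeks (backgrounds 8.25% and 5.73%). An unadjusted p under 0.05 was found for 3 and 5 (backgrounds 23.4% and 19.2%). The medians were -0.29 at 2 weeks and -0.28 at 5 weeks. Plagl1, an imprinted zinc-finger transcription factor that in mouse is placed upstream of H19 and Igf2 in a network of imprinted growth genes, had 1.199, 1.46 and 1.88 CPM at 2 weeks, 2.28, 1.97 and 2.97 CPM at 5 weeks and 5.96, 3.16 and 2.775 CPM in TAA livers. The 2-week libraries lay below every TAA library (log2 change -1.39 ± 0.33, adjusted p = 0.0507), and the 5-week libraries overlapped TAA (-0.72 ± 0.32, adjusted p = 0.258).

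Igf2 was barely expressed, at 24, 73 and 27 estimated reads at 2 weeks, 38, 31 and 8 at 5 weeks and 45, 37 and 61 in TAA livers. This gave 0.496, 0.925 and 0.493 CPM at 2 weeks, 0.586, 0.599 and 0.122 CPM at 5 weeks, and 0.731, 0.544 and 0.838 CPM in TAA livers, with overlap in both comparisons. The log2 change was -0.13 ± 0.54 at 2 weeks (adjusted p = 0.9) and -0.70 ± 0.55 at 5 weeks (adjusted p = 0.528). Of its reads, 337 belonged to transcript variant 1, whose promoter is shown, and 7, from replicate 18, to variant 3. EdgeR called none of the 12 IGF receptors and binding proteins at either time, and DESeq2 called 1 at each (backgrounds 8.25% and 5.73%). An unadjusted p under 0.05 was found for 2 at 2 weeks and 3 at 5 weeks (backgrounds 23.4% and 19.2%). Igfbp5, a secreted IGF-binding protein, averaged 2.67 ± 0.786 CPM at 2 weeks and 6.34 ± 2.54 CPM in TAA livers (log2 change -1.25 ± 0.34, adjusted p = 0.073).

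The RNA-binding and chromatin factors of the fetal liver were scarcely expressed, and 5 of 10 were tested. EdgeR called none at either time, DESeq2 called 1 at 2 weeks and 0 at 5 weeks, and 2 and 3 had an unadjusted p under 0.05. The medians were -0.62 at 2 weeks and -0.47 at 5 weeks. Hmga1, a chromatin protein of fetal and tumour tissue, averaged 3.49 ± 0.829 CPM at 2 weeks and 6.23 ± 0.658 CPM in TAA livers (log2 change -0.84 ± 0.27, adjusted p = 0.109). Lin28b, which blocks let-7 processing in fetal cells, had no reads in any of the 9 libraries.

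Gpc3 went the other way from Afp and H19, with values above every TAA library at 2 weeks. It had 36.3, 16.5 and 11.1 CPM at 2 weeks, 5.71, 35.0 and 20.1 CPM at 5 weeks, and 8.39, 6.63 and 8.28 CPM in TAA livers. The rhCYGB libraries spread over a 6.36-fold range, and replicate 23 lay below all TAA libraries. The fold was 2.74 at 2 weeks (log2 change 1.45 ± 0.59, adjusted p = 0.173) and 2.61 at 5 weeks (1.38 ± 0.59, adjusted p = 0.237), so neither was called. Over all rhCYGB libraries it was 2.67 (1.42 ± 0.52, adjusted p = 0.181). Without replicate 23 that value was 1.60 ± 0.37 and called (adjusted p = 0.0411), and DESeq2 called it with all libraries (adjusted p = 0.0353). The size of the change rested on single libraries: the 2-week value was 0.83 ± 0.57 without replicate 17 (adjusted p = 0.528), and the 5-week value 0.73 ± 0.55 without replicate 27 (adjusted p = 0.432). Of 9 other glypicans and modifying enzymes in a list, 8 were tested and edgeR called none. DESeq2 called 2 at 2 weeks and 1 over all rhCYGB libraries, and 5 and 4 had an unadjusted p under 0.05 there. Sulf1, a sulfatase that trims heparan sulfate outside the cell, had 0.868, 1.00 and 0.657 CPM at 2 weeks, 0.386, 0.734 and 1.69 CPM at 5 weeks and 2.23, 2.01 and 3.04 CPM in TAA livers. All rhCYGB libraries lay below TAA (log2 change -1.44 ± 0.37 over all, adjusted p = 0.073).

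Cd24a and Ly6d, the surface proteins, overlapped TAA in both groups. Cd24a, a mucin-like glycoprotein of progenitor, biliary and blood cells, had 13.6, 23.3 and 13.45 CPM at 2 weeks, 4.44, 20.7 and 21.1 CPM at 5 weeks and 19.9, 17.9 and 29.4 CPM in TAA livers. Its log2 change was -0.41 ± 0.49 at 2 weeks (adjusted p = 0.625) and -0.54 ± 0.49 at 5 weeks (adjusted p = 0.594). Ly6d, a Ly6-family protein, had 93.6, 68.0 and 79.2 CPM at 2 weeks, 29.6, 77.3 and 68.3 CPM at 5 weeks, and 64.5, 68.1 and 85.1 CPM in TAA livers. Its log2 change was 0.15 ± 0.30 at 2 weeks (adjusted p = 0.792), which turned to -0.19 with library totals, and -0.31 ± 0.30 at 5 weeks (adjusted p = 0.62). Replicate 23 was the lowest of the 9 libraries for both. Of 15 other genes of the Ly6 family, 6 were tested and edgeR called none. DESeq2 called 1 at 5 weeks, and 1 had an unadjusted p under 0.05 at 2 weeks and 3 at 5 weeks. Ly6c1, a marker of endothelial and myeloid cells, averaged 0.814 ± 0.0387 CPM at 2 weeks and 1.59 ± 0.255 CPM in TAA livers (log2 change -0.96 ± 0.30, adjusted p = 0.101).

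Siglece, a sialic acid-binding inhibitory receptor of mouse myeloid cells, was the 1 of 5 genes in the list of Siglec partners of CD24 that edgeR called, and it was called at 2 weeks only. DESeq2 called 1 gene of the list in each of 2 weeks against TAA, 5 weeks against TAA and 5 weeks against 2 weeks, and at 5 weeks against TAA 1 had an unadjusted p under 0.05. It rose at 2 weeks to 6.70 ± 1.46 CPM, against 3.34 ± 0.584 CPM in TAA livers (log2 change 1.01 ± 0.22, adjusted p = 0.0441), with all 3 libraries above TAA. At 5 weeks it averaged 2.502 ± 0.445 CPM and overlapped TAA (-0.42 ± 0.22, adjusted p = 0.342).

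Tff3, the trefoil peptide, had 1.302, 1.115 and 0.365 CPM at 2 weeks, 0.370, 1.16 and 0.822 CPM at 5 weeks, and 0.682, 0.690 and 0.673 CPM in TAA livers. The rhCYGB libraries lay on both sides of the narrow TAA range. The log2 change was 0.44 ± 0.51 at 2 weeks (adjusted p = 0.614) and 0.19 ± 0.51 at 5 weeks (adjusted p = 0.88), and its sign turned under several alternatives. Of 9 trefoil and mucosal secretion genes, 4 were tested. Neither edgeR nor DESeq2 called any of them, and 0 had an unadjusted p under 0.05. The one with the lowest p, Muc13, a transmembrane mucin, averaged 0.988 ± 0.479 CPM at 5 weeks and 0.513 ± 0.092 CPM in TAA livers (log2 change 0.94 ± 0.46, adjusted p = 0.3).

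**Figure D4:**
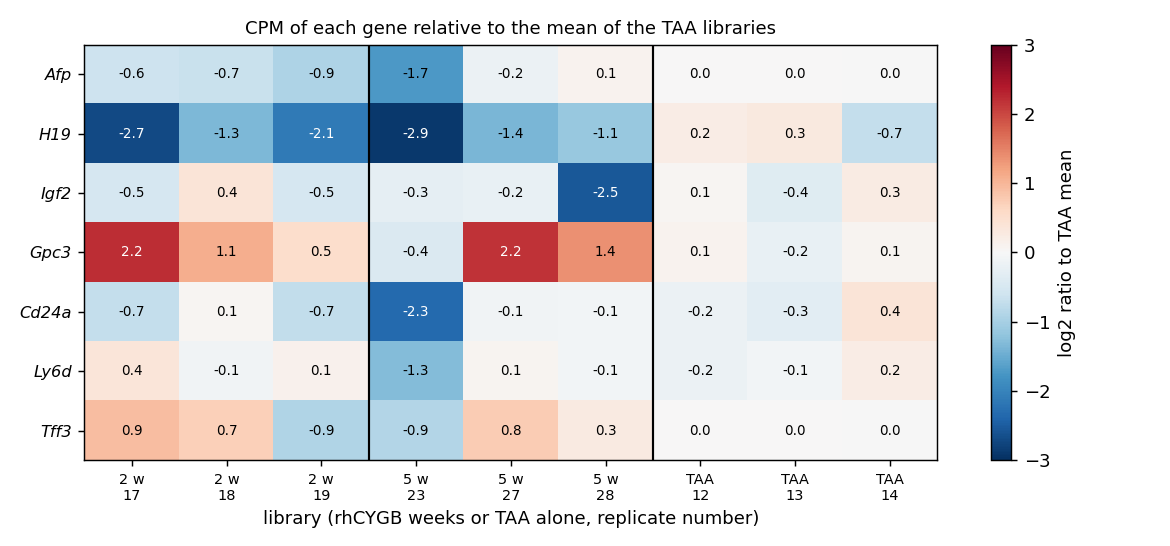
Log2 ratio of each library to the TAA mean for the 7 genes, a row per gene and a column per library. Replicate 23 is below 0 for all 7 genes, by 2.89 for H19 and 0.26 for Igf2, and the other rhCYGB libraries are below 0 for H19 and above it for Gpc3.

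Between the rhCYGB schedules, no member was called by edgeR and none had an unadjusted p under 0.05 (backgrounds 0.0204% and 23.2%), DESeq2 called none (background 3.21%), and all 7 overlapped, where 21.1% of all genes did not. The largest difference of 5 weeks against 2 weeks was -0.57 ± 0.55 for Igf2 (adjusted p = 0.534), followed by -0.46 ± 0.30 for Ly6d (adjusted p = 0.358). The difference was 0.30 ± 0.49 for H19 (adjusted p = 0.715) and -0.07 ± 0.57 for Gpc3 (adjusted p = 0.949). These values do not show that the schedules act alike.

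Across the 9 libraries, the genes whose log2 CPM ran most like each member are given as a description, with Pearson's r over libraries that share the same groups and depth. H19 ran with Mark1, a microtubule affinity-regulating kinase (r = 0.991), which had 1.14, 1.57 and 1.39 CPM at 2 weeks, 1.06, 1.80 and 1.80 CPM at 5 weeks, and 2.94, 2.86 and 2.25 CPM in TAA livers. Pkia (0.978) and Myo5a (0.969) followed. Cd24a ran with the epithelial genes Epcam (0.983) and Ehf (0.98), and Gnb5 (0.977). Afp ran with Slc52a3 (0.952), Nlgn3 (0.95) and Atp10a (0.947), Gpc3 with Kng1 (0.973), Mogat2 (0.966) and Cib3 (0.946), and Ly6d with Homer3 (0.965), Sdccag3 (0.962) and Prom1 (0.959). Among the members, Afp and Cd24a had r = 0.86, and Gpc3 and Tff3 0.81. The neighbours H19 and Igf2 had r = 0.16. For Afp, Cd24a and Ly6d and the genes named as running with them, replicate 23 was the lowest of the 9 libraries. It was also the lowest for H19, Mark1 and Pkia and for Gpc3, Kng1 and Mogat2, but not for Myo5a or Cib3. How far these r values rest on that library was not tested. Nlgn3 had only 0 to 20 estimated reads, with 0 in replicate 23.

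Beside H19, other genes were also lower with rhCYGB than with TAA alone, and their part in the H19 result was not tested. Among the TAA libraries, replicate 14 had the lowest H19 and the highest Acta2. Other stellate cell markers were ordered differently. Col1a2 had 430, 272 and 389 CPM in replicates 12, 13 and 14, and the summed markers 2168, 1470 and 2001 CPM. Of 14 stellate cell and myofibroblast markers, edgeR called 3 lower at 2 weeks, 2 at 5 weeks and 6 over all rhCYGB libraries. The backgrounds were 1.34%, 0.604% and 1.13%. DESeq2 called 7, 10 and 8 (backgrounds 8.25%, 5.73% and 5.73%), and 9, 10 and 10 had an unadjusted p under 0.05 (backgrounds 23.4%, 19.2% and 17.8%). Acta2, smooth muscle actin of activated stellate cells, had 9.69, 18.1 and 7.88 CPM at 2 weeks, 3.83, 8.60 and 8.44 CPM at 5 weeks and 43.8, 37.6 and 77.1 CPM in TAA livers (log2 change -2.49 ± 0.38 over all, adjusted p = 0.0211). The summed level of the 14 markers was 569 to 988 CPM at 2 weeks, 428 to 920 CPM at 5 weeks and 1470 to 2168 CPM in TAA livers, and no marker was at 0 in any library. Of 16 dividing cell markers, edgeR called 8 lower at 2 weeks, 5 at 5 weeks and 10 over all. DESeq2 called 16, 13 and 16, and all 16 had an unadjusted p under 0.05 in each comparison with TAA. Their sum was 182 to 252 CPM at 2 weeks, 222 to 240 CPM at 5 weeks and 366 to 402 CPM in TAA livers, again with none at 0.

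Beside Cd24a, the biliary markers are relevant, and their part was likewise not tested. Of 15 cholangiocyte markers, 14 were tested. EdgeR called none at either time (3 had an unadjusted p under 0.05 at 2 weeks and 2 at 5 weeks, and DESeq2 called 2 and 1). Over all rhCYGB libraries Cldn4, a tight-junction claudin, fell to 4.90 ± 2.24 CPM, against 18.45 ± 5.39 CPM in TAA livers (log2 change -1.92 ± 0.42, adjusted p = 0.0489). The sum was 375 to 496 CPM at 2 weeks, 231 to 484 CPM at 5 weeks and 483 to 700 CPM in TAA livers. Beside Gpc3, the T and NK cell markers were higher at 2 weeks, where edgeR called 3 of 11 tested, Cd8b1, Ccl5 and Nkg7, higher. DESeq2 called 6 of these markers at 2 weeks and 1 at 5 weeks, and 7 and 3 had an unadjusted p under 0.05. Their sum was 15.9 to 33.4 CPM at 2 weeks, 6.00 to 24.8 CPM at 5 weeks and 5.26 to 7.78 CPM in TAA livers, with Cd3e at 0 in replicate 23, and the part of these cells was not tested. Of 20 mature hepatocyte genes, which describe the main cell type of the samples, edgeR called 1 at each time. Fbp1 rose at 2 weeks (log2 change 0.49) and Cyp2e1 at 5 weeks (1.38). DESeq2 called 5 at 2 weeks and 6 at 5 weeks, and 11 and 10 had an unadjusted p under 0.05. The medians were 0.41 at 2 weeks and 0.42 at 5 weeks. Of 12 macrophage markers, edgeR called Clec4f higher (log2 change 0.85) and Gpnmb lower at 2 weeks, and 10 were not called. Their median was -0.11, DESeq2 called 2, and 4 had an unadjusted p under 0.05. Of 8 erythroid markers, 4 were tested at 2 weeks, Alas2 was called higher (1.00) and 3 were not called. All tested genes were called at 1.98% higher and 1.34% lower there. EdgeR called none of the tested B cell (9), neutrophil (9), endothelial (10), mesothelial (8), gallbladder (5) or intestine and pancreas (5) markers in any comparison, and neither did DESeq2. At an unadjusted p under 0.05, each of these lists held at most 2 genes in any comparison.

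**Figure D5:**
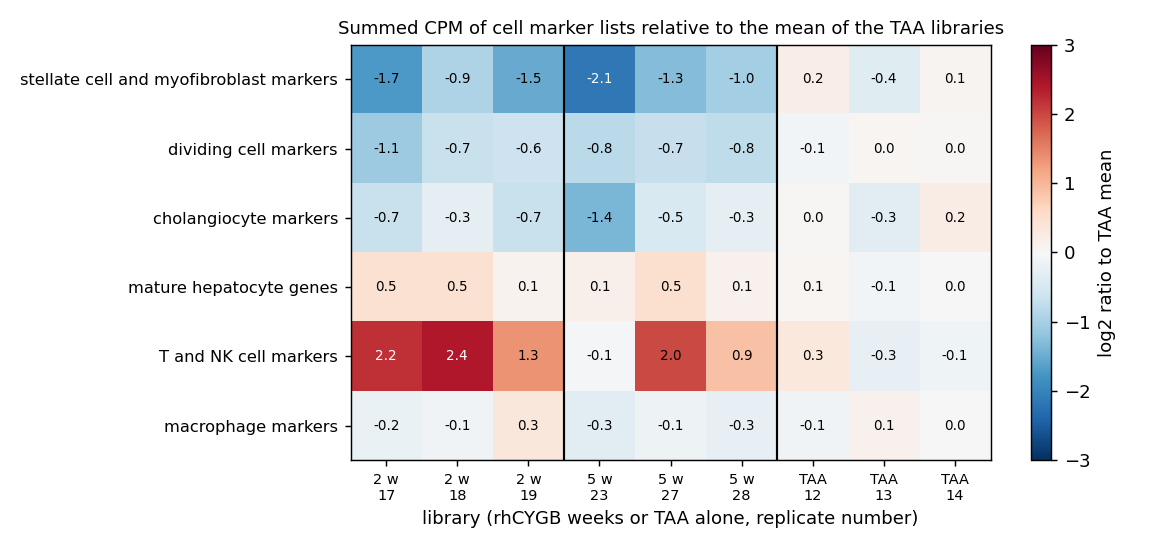
Log2 ratio of each library to the TAA mean for the summed markers of each cell type, a row per list and a column per library. The stellate, dividing cell and cholangiocyte sums lie below 0 in all 6 rhCYGB libraries, and the T and NK cell sum lies above 0 in the 3 libraries of the 2-week group and in 5-week replicates 27 (1.98) and 28 (0.88).

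Among other progenitor and tumour-associated genes of the liver, edgeR called some lower. Of 25 in a list, 24 were tested. EdgeR called 4 lower at 2 weeks, 1 at 5 weeks and 4 over all rhCYGB libraries (backgrounds 1.34%, 0.604% and 1.13%). The medians were -0.35, -0.57 and -0.44. DESeq2 called 9, 6 and 9 in either direction (backgrounds 8.25%, 5.73% and 5.73%). An unadjusted p under 0.05 was found for 10, 11 and 11 genes (backgrounds 23.4%, 19.2% and 17.8%). Gpnmb, a glycoprotein of macrophages, averaged 15.8 ± 4.77 CPM at 2 weeks and 51.4 ± 10.4 CPM in TAA livers (log2 change -1.70 ± 0.25, adjusted p = 0.024). Ccnd1, the cyclin of cell-cycle entry, averaged 98.1 ± 9.65 CPM at 2 weeks and 175.5 ± 28.6 CPM in TAA livers (-0.84 ± 0.14, adjusted p = 0.0255). Birc5, the mitotic protein survivin, was called lower at both times, at 11.03 ± 0.178 CPM at 5 weeks against 21.0 ± 1.51 CPM in TAA livers (-0.93 ± 0.16, adjusted p = 0.0406). Lpl, lipoprotein lipase, was called lower at 2 weeks (-1.09 ± 0.25, adjusted p = 0.0491). Birc5 stands also among the dividing cell markers and Gpnmb among the macrophage markers. Abcc4, an export transporter, rose over all rhCYGB libraries (0.98 ± 0.20, adjusted p = 0.0361), and it was named after its value was seen.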

How the data were processed

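Liver RNA libraries, 9 in all (TruSeq Stranded mRNA kit, per the labels' protocols) were analysed as 3 groups of 3. The build mm10, StringTie 1.3.4d, HISAT2 2.1.0 and FastQC 0.11.7 are listed in the submitters' processing notes. The deposited expected counts of reads per gene and the deposited FPKM values are the authors' own, as the file headers name them. The counts are whole numbers, and how they were derived and counted by strand is not given in the sources used here, so H19, Igf2 and their antisense RNAs cannot be told apart. Library totals (55655727 to 87289945) limit the precision of genes near 1 CPM.

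Genes passing edgeR's filterByExpr (minimum count 10, minimum total 15) received TMM factors and entered the quasi-likelihood F test of edgeR 4.0.16 (R 4.3.3). P-values were Benjamini-Hochberg adjusted over 14731 genes, and a gene was called under 0.05. All 9 libraries entered 1 fit of 3 groups, and a second fit set the 6 rhCYGB libraries against TAA. SE is the log2 change divided by the square root of F. Alternatives used other scalings, DESeq2 1.42.0 (18093 genes tested, 18088 in the second fit), limma 3.58.1 on log2(FPKM + 1) or log2(FPKM + 0.1) for genes with a mean of at least 0.1 FPKM, no filter, other samples in the fit, removal of a transcript length trend, and leaving out each library. The edgeR script was tested on simulated data. The members and the 23 gene lists were chosen with earlier results of these data known. From each list up to 4 called genes by lowest p, otherwise the gene with the lowest p, were named. For members with a mean of at least 1 CPM, the 3 genes with the highest Pearson r of log2(CPM + 0.5) were named.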

Additional observations from a re-analysis of the deposited data

How the results depend on the processing

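No paired analysis was possible because the groups share no replicate numbers. Of 497 member values under alternatives, 446 kept direction and side of the threshold, 9 lost and 12 gained a call, and 30 changed sign, all 30 for values that were not called; the cause was not tested. At 2 weeks against TAA 488 genes were called (59.6% higher), and 1722 with library totals (6.39% higher), 1492 with DESeq2, 1869 with limma on log2(FPKM + 1), 1593 on log2(FPKM + 0.1), 1023 with only the groups compared, and 1 to 1095 with a library left out. Upper quartile factors gave 45.1% higher. At 5 weeks 190 were called (53.2% higher), and 77 with upper quartile factors (41.6% higher), 504 with library totals (7.54% higher), 1036 with DESeq2, 105 without the filter, 910 and 658 with limma on log2(FPKM + 1) and log2(FPKM + 0.1), 1 with only the groups compared, 602 with the length trend removed, and 0 to 240 with a library left out (1890 to 3609 at an unadjusted p under 0.05). For 5 weeks against 2 weeks 3 were called, and 580 with DESeq2, 1 with limma on log2(FPKM + 1), 0 with only the groups compared (2451 at an unadjusted p under 0.05), 6 with the length trend removed, and 1 to 1889 with a library left out. Over all rhCYGB libraries 295 were called (43.4% higher), and 1163 with library totals (4.99% higher), 1036 with DESeq2, 1489 and 1097 with limma on log2(FPKM + 1) and log2(FPKM + 0.1), 586 with the length trend removed, and 0 to 662 with a library left out (1741 to 3450 at an unadjusted p under 0.05). Upper quartile factors gave 26.7% higher.

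Log2 changes that reversed at 2 weeks were Ly6d (0.15), at -0.19 with library totals, -0.19 and -0.19 with limma and -0.28 with the length trend removed, Tff3 (0.44), at -0.012 and -0.079 with limma and -0.17 with the length trend removed, and Igf2 (-0.13), at 0.017 with the length trend removed and -0.51 to 0.024 with a library left out. At 5 weeks Tff3 (0.19) was -0.036 with library totals, -0.062 and -0.14 with limma, and -0.19 to 0.52 with a library left out. For 5 weeks against 2 weeks Gpc3 (-0.07) was 0.056 with library totals and Tff3 (-0.25) was 0.24 with the length trend removed. With a library left out in that comparison Gpc3 ran from -0.72 to 0.55, Tff3 from -0.63 to 0.088, Cd24a from -0.42 to 0.31, Afp from -0.006 to 0.71 and H19 from -0.029 to 0.75. Over all rhCYGB libraries Tff3 (0.32) was -0.037 and -0.11 with limma and -0.045 with the length trend removed, and Ly6d (-0.07) ran from -0.17 to 0.074 with a library left out. H19 over all rhCYGB libraries was not called with upper quartile factors (adjusted p = 0.0537) or without the filter (0.0567). H19 at 2 weeks was called with library totals (0.0295), DESeq2 (0.00199), limma on log2(FPKM + 1) (0.0177) and log2(FPKM + 0.1) (0.0279), only the groups compared (0.0319) and without replicate 23 (0.0244), and at 5 weeks with DESeq2 (0.0173) and limma on log2(FPKM + 1) (0.0337). The low read counts of Igf2, Tff3 and H19 limit what these libraries can show.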
